A study of Danio rerio with 6 samples.

Results

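The genes described here are 70 of the 32054 rows in a table of exon counts from zebrafish embryos. They carry the names of developmental transcription factor families: sox, gata, tbx, pax, irx, klf, her, nkx, lhx, sp, zic, tfap2, hox, fox, dlx, msx, otx, pou and grhl. Genome activators, mesendoderm genes and the enveloping layer gene grhl3 that bear such names were set aside (sox2, sox3, sox19a, sox19b, sox32, pou5f3, gata5, tbx16, tbxta and grhl3). A gene could be a member only if the part of the study's lists read here paired its Ensembl identifier with a symbol, and these lists were ordered in 2 ways. For 52 members the symbol came from rows in order of Ensembl identifier, an order that does not depend on expression. The other 18 were selected on the p-value of the morphant comparison itself, since their symbols stood only in a list that begins with the lowest p-values. For those 18 the levels and fold changes are therefore a description without a test. Of the 52, her6 and irx7 (2 genes) also stood in the list ordered by p-value.

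All embryos had been injected as eggs and were sampled later, at 4 hpf, and the table holds 3 libraries from each of 2 groups. The mondoa-mo group received a morpholino that blocks translation of mondoa, the gene annotated as mlxip, and the mondoa-mis group a mismatch morpholino as its control. Whole embryos were pooled for RNA and sampled at the age at which controls had reached sphere stage, so that a difference in developmental progress between the groups cannot be told apart from a difference in the level of a transcript at one stage. Nothing in the sources used here states whether the 3 libraries of a group came from separate clutches, and the p-values measure only the spread between these libraries. In such bulk samples fewer cells of a type and less RNA per cell cannot be told apart either.

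MondoA is a basic helix-loop-helix leucine zipper factor that acts with Mlx and responds to glucose metabolites. Around sphere stage the zygotic genome has just become active, maternal mRNAs are being cleared, and the blastoderm consists of deep cells covered by an epithelial enveloping layer above the yolk syncytial layer. Many patterning factors are first transcribed at this time or soon after, while broadly acting factors of the Sp, Fox and Pou families are often supplied by the mother. Hox genes and most organ-specific factors are known for later roles. A group of such genes at this stage therefore mixes abundant transcripts, genes that are beginning to be transcribed and genes that are nearly silent.

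Library totals ran from 21839631 to 32100726 counts in mondoa-mo and from 20685326 to 24254373 in mondoa-mis. Levels are given as CPM, the count of a gene scaled to a common library total after TMM normalization. The mondoa-mo libraries differed more among themselves than the mondoa-mis libraries did, with a chi-square per degree of freedom of 10.6 to 16.2 between pairs, against 1.33 to 1.73. The transcript of mlxip stood at 298, 327 and 349 CPM in mondoa-mo, against 278, 273 and 267 CPM in mondoa-mis, a log2 fold change of 0.25 (adjusted p = 0.00745, edgeR's quasi-likelihood test). A morpholino that blocks translation need not lower the mRNA, so this value does not check the labels. Over all 15511 genes that passed the filter on low counts, 5017 were called changed at an adjusted p under 0.05, which is 32.3%. Of the genes tested, 16.9% were higher and 15.4% lower in mondoa-mo, and the median log2 fold change was 0.00.

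By annotation 66 of the 70 members are transcription factors of these families. The other 4 are not DNA-binding factors of a family, although their names begin like one. They are gatad2ab and gatad2b, subunits of the NuRD chromatin complex with a GATA-type zinc finger, paxip1, a BRCT-domain protein that associates with histone methyltransferases, and tbxas1, the thromboxane synthase. Of the 52 members taken from rows in identifier order, 29 were tested. All 18 selected on the p-value were tested, as that selection requires.

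Levels were divided by annotated gene length, which need not be that of the transcripts present, so comparisons between genes are approximate. Per kilobase of this length, sox11b had the highest level of all members, with means of 257 CPM per kb in mondoa-mo and 182 in mondoa-mis. Next came paxip1, with 86.6 and 75.4 CPM per kb, then foxk1 with 60.9 and 51.1, and sox11a with 50.0 and 29.1. A maternal or ubiquitous pattern is known for several of the genes in the next places (foxm1, sp3b, sp3a), whereas zic2b held a mean of 35.9 CPM per kb in mondoa-mo and 14.2 in mondoa-mis. Among tested members tbx15 had the lowest mean in mondoa-mo, 0.0536 CPM per kb, with 0.0623 in mondoa-mis. The members thus spanned abundant transcripts and transcripts known from a few counts.

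Among the factors of neural and anterior ectoderm, the 6 genes selected on the p-value comprised 5 with a higher level in mondoa-mo and 1 with a lower level. The largest difference upward was that of zic2b (ENSDARG00000037178), a zinc-finger factor of the neural plate and forebrain. It stood at 85.7, 66.2 and 109 CPM in mondoa-mo, against 35.2, 34.3 and 33.6 CPM in mondoa-mis. Every mondoa-mo library lay above every mondoa-mis library, which follows from the selection, and the log2 fold change was 1.34 (standard error 0.144). The forkhead gene foxb1a (ENSDARG00000089042), expressed in the neural plate, had 25.4, 25.0 and 33.1 CPM in mondoa-mo, against 14.6, 15.6 and 14.3 CPM in mondoa-mis, a log2 fold change of 0.90. For both genes mondoa-mo replicate 3 was the highest library.

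The SoxC genes sox4 and sox11 encode HMG-box factors known for neuronal differentiation, and each has 2 copies among the members. The level of sox11b (ENSDARG00000095743) was 710.3, 712 and 661 CPM in mondoa-mo, against 487, 499.7 and 486 CPM in mondoa-mis, a log2 fold change of 0.50 (standard error 0.0439). Its copy sox11a (ENSDARG00000077811) had 149, 138 and 207 CPM in mondoa-mo, against 97.4, 99.3 and 91.5 CPM in mondoa-mis, a log2 fold change of 0.78 (standard error 0.124). The third mondoa-mo library was the lowest of its group for sox11b and the highest for sox11a. Per kilobase, the ratio of sox11a to sox11b was 0.172, 0.159 and 0.256 in mondoa-mo, against 0.164, 0.163 and 0.154 in mondoa-mis, and the groups overlapped. The level of sox4b (ENSDARG00000098834) was 16.03, 12.7 and 11.9 CPM in mondoa-mo, against 8.38, 6.21 and 6.94 CPM in mondoa-mis, a log2 fold change of 0.92 (standard error 0.146).

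Its copy sox4a (ENSDARG00000004588), which came from the rows in identifier order, had 3.14, 2.12 and 1.79 CPM in mondoa-mo, against 1.80, 1.57 and 2.04 CPM in mondoa-mis. The groups overlapped, and the log2 fold change of 0.40 did not pass (95% interval -0.12 to 0.93, adjusted p = 0.222, edgeR's quasi-likelihood test). Per kilobase the ratio of sox4a to sox4b was 0.177, 0.1504 and 0.136 in mondoa-mo, against 0.194, 0.229 and 0.266 in mondoa-mis, with no overlap. Because sox4b was selected on its difference, this ratio is a description. Another row of the counts also bears the reference symbol sox4a (ENSDARG00000096389). It had 7, 6 and 7 counts in mondoa-mo, against 4, 7 and 0 counts in mondoa-mis. That row did not pass the filter on low counts, is not a member and has no part in the ratio. Only uniquely mapped pairs were counted, so that the levels of near-identical copies are uncertain.

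The 1 neural member selected on the p-value that was lower was her3 (ENSDARG00000076857), a Hairy/E(spl) repressor that restrains neurogenesis in the neural plate. It stood at 0.384, 0.322 and 0.417 CPM in mondoa-mo, against 1.80, 1.87 and 1.24 CPM in mondoa-mis. These levels rest on 12, 7 and 10 counts in mondoa-mo and on 44, 44 and 26 counts in mondoa-mis, and the log2 fold change was -2.11 (standard error 0.278). It was the largest difference downward among all members tested, and the groups did not overlap, which follows from the selection.

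**Figure D1:**
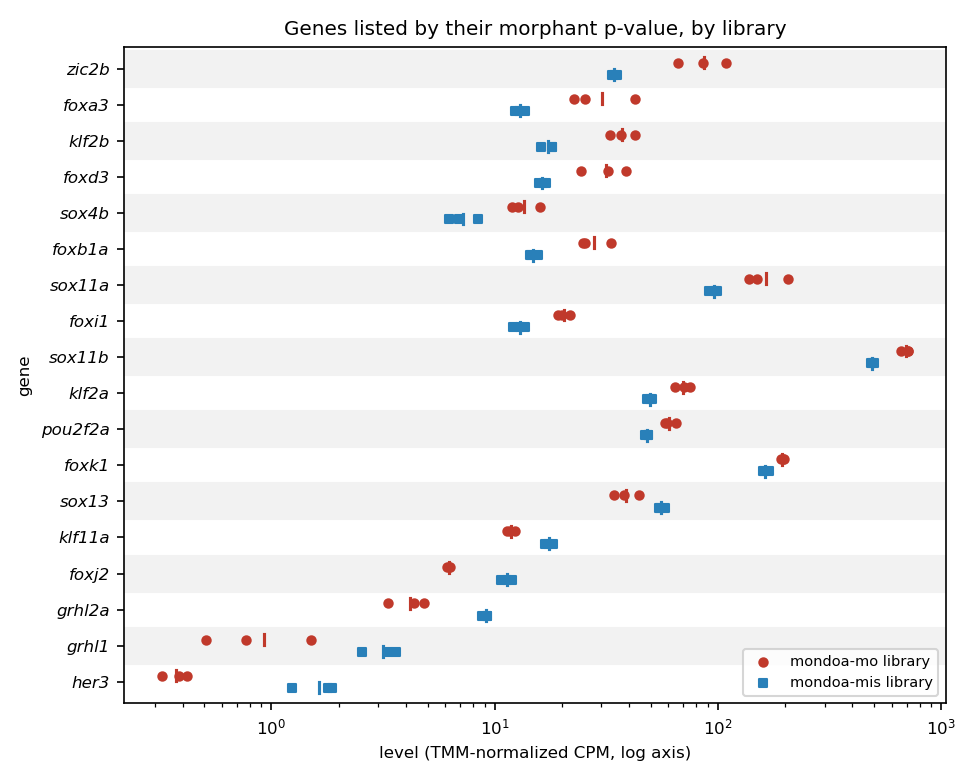
Level of each of the 18 members selected on the p-value of the morphant comparison, in TMM-normalized CPM on a log axis, with 1 point per library and a vertical tick at each group's mean. Since the selection used this comparison, the separation of the groups in every row is a property of how the genes were chosen, and the plot shows sizes and spread, with 12 genes higher and 6 lower in mondoa-mo.

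Of 15 neural and anterior factors from the rows in identifier order, 7 were tested and 3 were called changed, all of them higher in mondoa-mo: irx7, otx2b and her5. These 3 are 42.9% of the 7, against 32.3% of all genes tested, and with 7 genes no difference between the shares is claimed. The count includes otx2b, which entered the test only through its mondoa-mo libraries. The Iroquois gene irx7 (ENSDARG00000002601), which acts at the midbrain and anterior hindbrain, had 18.7, 19.2 and 20.1 CPM in mondoa-mo, against 13.9, 13.1 and 13.6 CPM in mondoa-mis. Its groups were tight and well apart, with a log2 fold change of 0.52 (edgeR's quasi-likelihood test, standard error 0.0803, adjusted p = 0.000901). The midbrain-hindbrain gene her5 (ENSDARG00000008796) had 15.0, 16.4 and 18.8 CPM in mondoa-mo, against 12.9, 11.9 and 13.4 CPM in mondoa-mis, and its groups did not overlap. The log2 fold change of her5 was 0.39 (standard error 0.105, adjusted p = 0.0168, edgeR). Without mondoa-mis replicate 1 or 2 it no longer passed, with adjusted p-values up to 0.0866.

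The homeobox gene otx2b (ENSDARG00000011235), a specifier of forebrain and midbrain, had the largest log2 fold change upward of all members, 2.29, but from very few counts. It had 25, 13 and 13 counts in mondoa-mo, against 3, 1 and 5 counts in mondoa-mis, or 0.8001, 0.599 and 0.542 CPM against 0.123, 0.0425 and 0.238 CPM. The groups did not overlap, the standard error was 0.470 and the adjusted p 0.00435 (edgeR's quasi-likelihood test). Its mondoa-mis counts lay below the filter on low counts, so otx2b entered the test only through the group where it was high. Its call and the separation of its groups are therefore a description. Leaving out 1 library at a time, the log2 fold change was at least 1.86 and at most 2.90. Besides sox4a, her11, lhx8a and sp8a were tested and not called. The log2 fold change was 0.10 for her11, 0.31 for lhx8a (adjusted p = 0.0690, edgeR) and -0.94 for sp8a (adjusted p = 0.0751, edgeR). The groups overlapped for her11 and not for lhx8a and sp8a, each of which was called in 1 alternative setting. The values of sp8a rest on 7, 13 and 12 counts in mondoa-mo, against 17, 18 and 21 counts in mondoa-mis. The remaining 8 neural genes (foxn4, irx2a, lhx6, nkx1.2la, pou3f1, pou4f1, sox1b and sox21b) did not pass the filter on low counts.

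In the list for factors of epidermis, neural crest and placodes, 6 genes were selected on the p-value, of which 4 stood higher and 2 lower in mondoa-mo. The list follows known roles, which can come after this stage, and it also holds klf2a, known from the endothelium. The Krüppel-like gene klf2b (ENSDARG00000040432), which is active in embryonic epidermis, had 42.3, 36.9 and 32.7 CPM in mondoa-mo, against 18.1, 16.1 and 17.97 CPM in mondoa-mis, a log2 fold change of 1.10 (standard error 0.102). Its paralog klf2a (ENSDARG00000042667), known for its response to blood flow in the endothelium, had 74.9, 64.1 and 70.4 CPM in mondoa-mo, against 50.6, 48.0 and 49.7 CPM in mondoa-mis, a log2 fold change of 0.50 (standard error 0.0671). The 2 copies were both higher, klf2b by more, but both were selected on these differences, so this and their ratio are a description. Per kilobase the ratio of klf2a to klf2b was 4.88, 4.79 and 5.93 in mondoa-mo, against 7.70, 8.22 and 7.63 in mondoa-mis.

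The neural crest specifier foxd3 (ENSDARG00000021032) had 32.2, 24.2 and 38.5 CPM in mondoa-mo, against 16.4, 16.9 and 15.8 CPM in mondoa-mis, a log2 fold change of 0.95 (standard error 0.143). The otic and epibranchial placode gene foxi1 (ENSDARG00000104566) had 19.97, 19.3 and 21.7 CPM in mondoa-mo, against 12.1, 13.7 and 13.0 CPM in mondoa-mis, a log2 fold change of 0.65 (standard error 0.0889). Replicate 3 was again the highest mondoa-mo library for both. The range within mondoa-mo was wide for foxd3, with its highest library at 1.59 times the lowest, and narrow for foxi1, at 1.13 times.

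The members with lower levels in this list were both grainyhead-like genes, whose factors drive epidermal differentiation and epithelial junctions. The level of grhl2a (ENSDARG00000058342) was 4.35, 4.84 and 3.34 CPM in mondoa-mo, against 8.79, 9.23 and 9.27 CPM in mondoa-mis, a log2 fold change of -1.12 (standard error 0.140). The level of grhl1 (ENSDARG00000061391) was 0.768, 0.507 and 1.50 CPM in mondoa-mo, from 24, 11 and 36 counts, against 3.60, 2.55 and 3.33 CPM in mondoa-mis, from 88, 60 and 70 counts. Its log2 fold change was -1.77 (standard error 0.313), and -2.26 without mondoa-mo replicate 3. The highest mondoa-mo library of grhl1 was thus 2.96 times the lowest, and it was the third that lay nearest to the controls.

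Markers of the enveloping layer, the epithelium in which grainyhead-like factors act at this stage, were summed beside these genes. Their 10 genes gave 123, 102 and 160 CPM in mondoa-mo, against 191, 191 and 199.5 CPM in mondoa-mis. Of the 8 that were tested, 1 was called higher (cldne) and 1 lower (grhl3), against 32.3% called over all genes tested. The keratins cyt1 and cyt1l had at most 3 counts in every library. Without grhl3 the sum was 88.9, 73.2 and 127 CPM in mondoa-mo, against 76.3, 75.6 and 79.1 CPM in mondoa-mis, so that the groups overlapped. The keratin krt4 had 5.79, 3.87 and 13.1 CPM in mondoa-mo, against 11.4, 12.0 and 12.0 CPM in mondoa-mis. Its groups overlapped and it was not called (log2 fold change -0.63, adjusted p = 0.167, edgeR's quasi-likelihood test). Of the other uncalled markers, krt8 and krt97 also had log2 fold changes below 0, and krt5, krt18a.1 and cldnf above 0. Replicate 3 was the highest mondoa-mo library for every tested marker except grhl3, as it was for grhl1. For grhl2a it was the lowest mondoa-mo library. The part of these markers in the levels of grhl1 and grhl2a was not tested.

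From the rows in identifier order, 9 genes of epidermis, crest and placodes were members, and none of the 4 that were tested was called by edgeR or DESeq2 (gata2b, msx1b, pax3a and sox9a). Over all genes tested 32.3% were called, and with 4 genes no difference between the shares is claimed. The log2 fold changes of these 4 ran from -0.89 to 0.01, with 3 below 0, and gata2b alone (1 gene) had an unadjusted p under 0.05 in edgeR. The other 5 (dlx4a, foxi3b, tbx2b, tbx3a and tfap2e) did not pass the filter. Of these, foxi3b, a factor of epidermal ionocyte precursors, had 10, 8 and 4 counts in mondoa-mo, against 2, 0 and 2 counts in mondoa-mis. It was called higher when every gene with at least 1 count was tested.

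Mesoderm and endoderm were represented by 10 members from the rows in identifier order and 1 selected on the p-value. Of the 10 in identifier order, 4 were tested and 1 was called, or 25.0%, against 32.3% of all genes tested. The called gene was her6 (ENSDARG00000006514), the ortholog of HES1 and a Notch-responsive repressor, which had 30.6, 28.6 and 41.2 CPM in mondoa-mo, against 12.9, 15.8 and 16.6 CPM in mondoa-mis. The groups were far apart, with a log2 fold change of 1.15 (edgeR's quasi-likelihood test, standard error 0.144, adjusted p = 0.000238). Omitting any 1 library kept it within 0.98 to 1.24. Of all members open to a test, her6 had the lowest adjusted p-value.

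The endodermal forkhead gene foxa3 (ENSDARG00000012788), selected on the p-value, had 25.4, 22.8 and 42.6 CPM in mondoa-mo, against 12.9, 12.4 and 13.6 CPM in mondoa-mis. Its log2 fold change was 1.22 (standard error 0.204) with all libraries and 0.90 without mondoa-mo replicate 3, which alone exceeded 3 times the control mean. The related gene foxa2 was tested with tbx15 and tbx20, and none of the 3 was called by edgeR or DESeq2 or had an unadjusted p under 0.05 in edgeR. Without mondoa-mo replicate 1, tbx20 was called lower at a log2 fold change of -0.66. The 6 untested genes of this list (foxl1, her13, lhx1b, pax1a, tbx16l and tbx6) had at most 11 counts in any library. Of the hox cluster genes, hoxb2a was tested and not called, and hoxa11b, hoxb1a and hoxb10a had at most 3 counts in every library.

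Markers of other cell types and of maternal RNA were also summed. The 2 matched yolk syncytial layer genes (mxtx1 and mxtx2) gave 16.3, 19.5 and 27.04 CPM in mondoa-mo, against 12.6, 13.4 and 12.4 CPM in mondoa-mis, with mxtx1 called higher and mxtx2 not called (log2 fold change 0.17, overlapping groups). The 8 genes of the deep cell list summed to 826, 738 and 840 CPM in mondoa-mo, against 619, 620 and 626 CPM in mondoa-mis. Of these genes, 6 were called higher and 2 lower. Most of this sum was eomesa, with 515.5, 474 and 469 CPM in mondoa-mo, against 439, 438 and 445 CPM in mondoa-mis (log2 fold change 0.14). The 10 matched oocyte and germ plasm genes summed to 1907, 2005 and 1582 CPM in mondoa-mo, against 2600, 2643 and 2608 CPM in mondoa-mis, with 4 called higher and 4 lower. The cyclin gene ccna1 and the germ plasm organizer buc, both called lower and singled out after their values were seen, carried this difference, since the other 8 genes summed to 704, 735 and 660.2 CPM in mondoa-mo, against 653, 674 and 646 CPM in mondoa-mis, and the groups overlapped. Replicate 3 was the lowest mondoa-mo library in the maternal sum and the highest in both others. Over all genes tested 32.3% were called, and the marker lists were chosen with earlier results of these data known. The part of these markers in the levels of the transcription factor genes was not tested.

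The rank of replicate 3 within mondoa-mo was then looked up for members with a higher level in mondoa-mo. Of the 12 members selected on the p-value with higher levels, 6 had their highest level in mondoa-mo replicate 3, namely zic2b, foxa3, foxd3, foxb1a, sox11a and foxi1. Among all 2621 genes called higher in mondoa-mo, 792 did, or 30.2%. For 5 others (klf2b, sox4b, sox11b, pou2f2a and foxk1) replicate 3 was the lowest mondoa-mo library, and for klf2a it lay between the others. Of the 16 tested members from the rows in identifier order with a log2 fold change above 0, replicate 3 was the highest mondoa-mo library for 5 and the lowest for 7. Without replicate 3 all 12 kept their direction, which is a description, since they were selected on these same libraries.

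**Figure D2:**
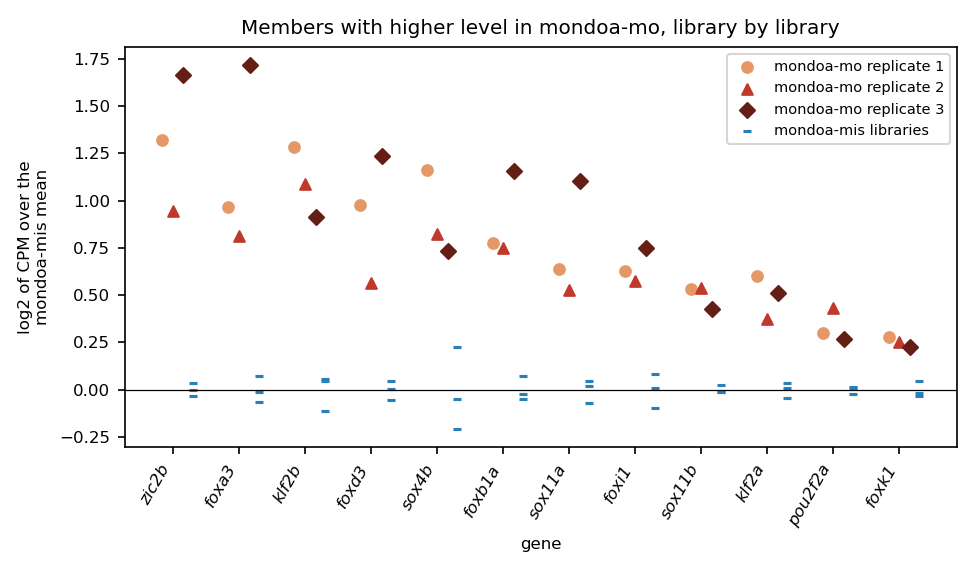
The 12 members selected on the p-value with a higher level in mondoa-mo, each library shown as the log2 of its CPM over the mean of the mondoa-mis libraries. Replicate 3 (dark diamonds) is the top mondoa-mo library for 6 genes, with wide gaps for foxa3 and sox11a, and the bottom one for 5 genes (klf2b, sox4b, sox11b, pou2f2a and foxk1); the mondoa-mis libraries (dashes) lie close to 0.

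Broadly expressed factors and others without a single early domain gave differences in both directions. The 5 selected on the p-value comprised 2 with higher and 3 with lower levels. Of these, foxk1 (ENSDARG00000037872), whose mammalian product promotes glycolysis and restrains autophagy genes, had 198, 195 and 191 CPM in mondoa-mo, against 159.6, 168 and 162 CPM in mondoa-mis, a log2 fold change of 0.25 (standard error 0.0443). The octamer-binding gene pou2f2a (ENSDARG00000036816) had 59.2, 64.8 and 58.0 CPM in mondoa-mo, against 47.3, 48.5 and 48.4 CPM in mondoa-mis, a log2 fold change of 0.33 (standard error 0.0613). Both differences were small, and the separation of their libraries follows from the selection on the p-value.

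The 3 with lower levels were foxj2, sox13 and klf11a. The forkhead gene foxj2 (ENSDARG00000057680) had 6.21, 6.31 and 6.13 CPM in mondoa-mo, against 10.7, 12.0 and 11.4 CPM in mondoa-mis, a log2 fold change of -0.87 (standard error 0.1002). The SoxD gene sox13 (ENSDARG00000030297) had 38.0, 44.1 and 34.2 CPM in mondoa-mo, against 58.2, 55.0 and 54.2 CPM in mondoa-mis, a log2 fold change of -0.53 (standard error 0.0874). The mondoa-mo libraries nearly coincided for foxj2 and spread more for sox13. The Krüppel-like gene klf11a (ENSDARG00000030844), whose mammalian product is a repressor downstream of TGF-beta, had 11.4, 12.3 and 11.7 CPM in mondoa-mo, against 16.9, 18.2 and 17.4 CPM in mondoa-mis, a log2 fold change of -0.57 (standard error 0.0848).

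From the rows in identifier order, 9 of 10 such factors were tested, of which 1 was called higher and 2 lower, a share of 33.3% against 32.3% of all genes tested. The thymus epithelium gene foxn1 (ENSDARG00000011879) had 4.26, 6.36 and 5.13 CPM in mondoa-mo, against 8.14, 8.51 and 8.56 CPM in mondoa-mis, a log2 fold change of -0.69 (edgeR's quasi-likelihood test, standard error 0.146, adjusted p = 0.00501). The GC-box factor sp4 (ENSDARG00000005186) had 15.4, 13.2 and 12.0 CPM in mondoa-mo, against 21.3, 18.1 and 18.1 CPM in mondoa-mis, a log2 fold change of -0.50 (standard error 0.113, adjusted p = 0.00703, edgeR). Both fell with no overlap of the libraries. The forkhead gene foxp2 (ENSDARG00000005453) was higher, with 13.0, 10.7 and 9.47 CPM in mondoa-mo, against 9.32, 7.70 and 7.56 CPM in mondoa-mis, and a log2 fold change of 0.44 (standard error 0.139, adjusted p = 0.0357, edgeR). Its lowest mondoa-mo library barely exceeded its highest mondoa-mis library. It passed in 9 of 14 settings, and without mondoa-mo replicate 1 or 2 or mondoa-mis replicate 2 or 3, or with scaling to library size alone, it did not, with adjusted p-values up to 0.134.

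Abundant relatives of these genes did not pass. The copies sp3a (ENSDARG00000001549) and sp3b (ENSDARG00000007812), GC-box factors like sp4, had log2 fold changes of -0.10 (95% interval -0.21 to 0.01) and -0.09 (-0.19 to 0.00). The level of sp3b was 164, 156 and 163 CPM in mondoa-mo, against 176, 171 and 169 CPM in mondoa-mis, and that of sp3a was 85.5, 84.2 and 87.8 CPM, against 95.3, 89.3 and 92.0 CPM. In both the groups did not overlap, but the adjusted p-values were 0.133 and 0.140 (edgeR's quasi-likelihood test). Their ratio per kilobase, sp3a to sp3b, was 0.815, 0.843 and 0.840 in mondoa-mo, against 0.846, 0.818 and 0.849 in mondoa-mis.

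For foxp1a (ENSDARG00000004843), a forkhead repressor, the level was 155, 164 and 144 CPM in mondoa-mo, against 172, 171 and 170.2 CPM in mondoa-mis, a log2 fold change of -0.15 (95% interval -0.27 to -0.03). Its adjusted p of 0.0534 (edgeR's quasi-likelihood test) lay next to the threshold, and it passed in 5 of 14 settings. For foxm1 (ENSDARG00000003200), which drives genes of mitotic entry, the level was 147, 152 and 120.0 CPM in mondoa-mo, against 135, 139.6 and 133 CPM in mondoa-mis. The mondoa-mo libraries of foxm1 lay on both sides of the controls, and its log2 fold change was 0.04 (95% interval -0.14 to 0.21, adjusted p = 0.745, edgeR). Without mondoa-mo replicate 3, its lowest library, foxm1 was called higher at a log2 fold change of 0.14. The octamer-binding gene pou2f1b and pou6f1 were not called, and sox5 did not pass the filter.

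All 4 members that are not DNA-binding developmental factors were tested. The chromatin gene paxip1 (ENSDARG00000005606) rose slightly, with 413, 388 and 399 CPM in mondoa-mo, against 357, 348 and 339 CPM in mondoa-mis, a log2 fold change of 0.20 (edgeR's quasi-likelihood test, standard error 0.0432, adjusted p = 0.0056). The NuRD genes gatad2ab and gatad2b did not pass, with log2 fold changes of 0.08 (95% interval -0.10 to 0.26) and 0.09 (-0.22 to 0.41). The level of gatad2ab (ENSDARG00000006192) was 84.0, 71.4 and 66.3 CPM in mondoa-mo, against 71.8, 68.4 and 69.3 CPM in mondoa-mis, and that of gatad2b (ENSDARG00000005834) 21.1, 19.2 and 13.6 CPM, against 17.2, 16.8 and 16.5 CPM. In both genes replicate 3 was the lowest library of all. The enzyme gene tbxas1 (ENSDARG00000002249) had 3.49, 1.80 and 2.67 CPM in mondoa-mo, against 2.94, 2.38 and 2.33 CPM in mondoa-mis, a log2 fold change of 0.08 that did not pass.

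**Figure D3:**
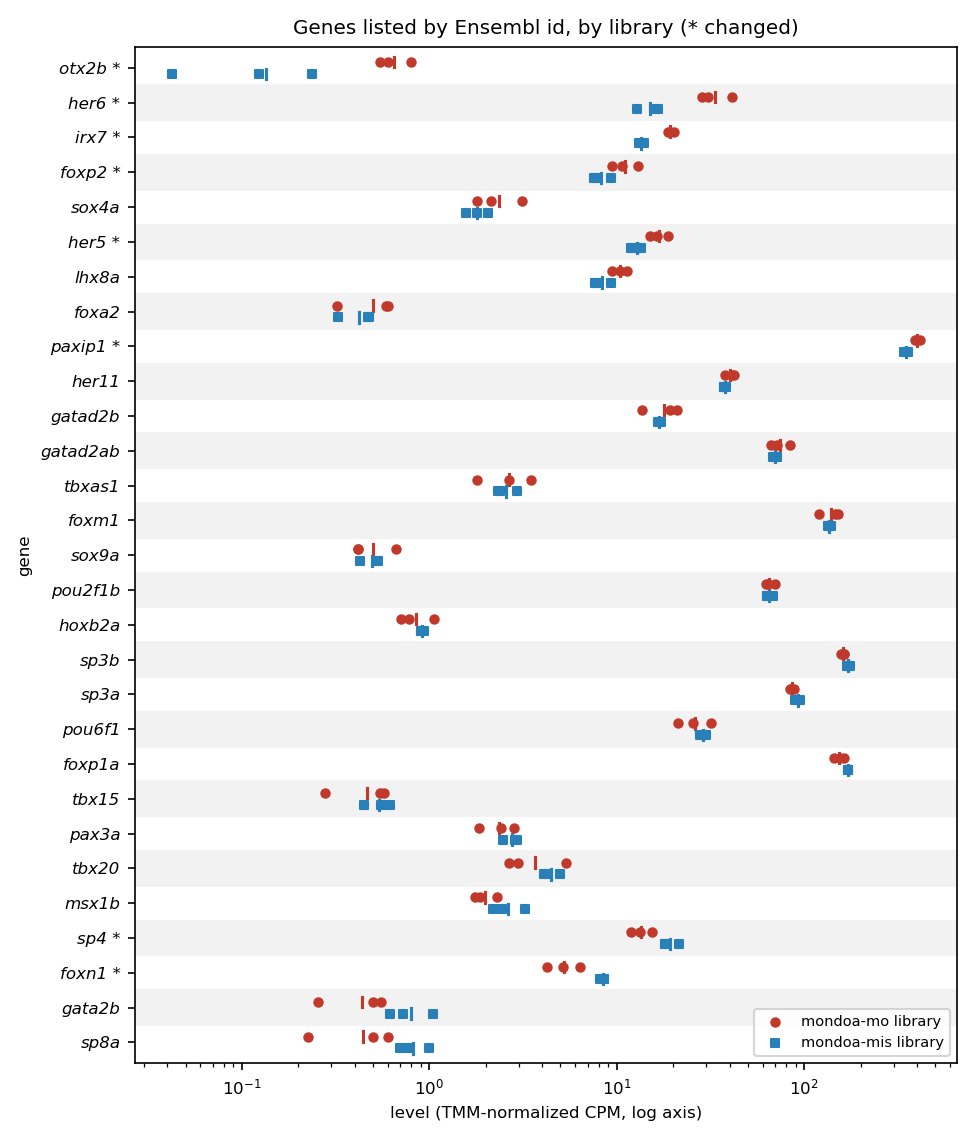
Level of each of the 29 tested members from the rows in identifier order, in TMM-normalized CPM on a log axis, ordered by log2 fold change, with 1 point per library, a tick at each group's mean and an asterisk at the 8 genes called changed. The 6 higher genes lie in the upper part and the 2 lower genes near the bottom, where the uncalled sp8a and gata2b stand at very low levels, and for most other genes the points of mondoa-mo and mondoa-mis overlap.

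Over the 29 tested members that the morphant comparison did not select, 6 were called higher and 2 lower. The 6 include otx2b, which entered the test only through its mondoa-mo libraries. These 8 are 27.6%, against 32.3% of all genes tested. The median log2 fold change of the 29 was 0.01 and the median of its absolute size 0.21, as over all genes tested (0.00 and 0.21). For 14 of the 29 the mondoa-mo and mondoa-mis libraries were fully separate, against 47.8% of all genes tested. Single members could thus be described as changed, whereas the share of members called and the size of their differences lay near those of all genes. No test was run on the members as a list.

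Other genes with names of the same families were found through reference symbols. This list leaves out all members, also the 18 selected on the p-value, and that selection lowers its share of calls. Its share and counts by family are therefore not those of the whole families. Of 251 such rows 93 were tested, and 14 were called higher and 17 lower, which together make 33.3%. Their median log2 fold change was -0.00. Among fox genes 3 of 20 tested were higher and 2 lower, among sox genes 1 of 7 higher and 1 lower, among klf genes 1 of 14 higher and 3 lower, and among sp genes 3 of 6 higher and 1 lower. The sp genes called higher include sp100.4, whose name is not that of an Sp factor. The 17 lower genes include SOX7 and HOXD9, which entered the test only through their mondoa-mis libraries, where they were higher. The calls of SOX7 and HOXD9 are therefore a description. In other families, 3 of 4 tfap2 genes and 0 of 5 irx genes were called. Over all genes tested 16.9% were higher and 15.4% lower, and with so few genes no difference of a family is claimed. Of 44 other hox genes only 6 passed the filter. With 8 genes left out whose names belong to no factor of these families, 29 of 89 were called.

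**Figure D4:**
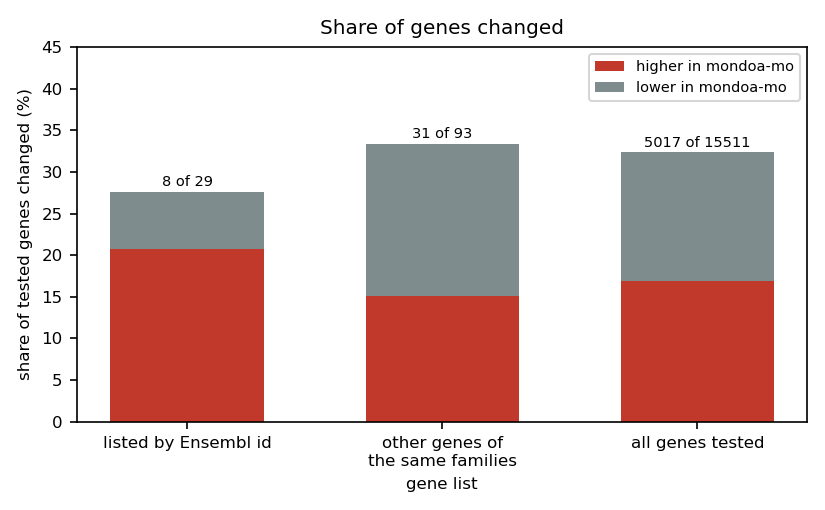
Share of tested genes called changed between mondoa-mo and mondoa-mis, in percent, for the members from the rows in identifier order, the other genes of the same families and all genes tested, with higher genes in red and lower genes in grey. The bars stand at 27.6%, 33.3% and 32.3% from left to right. The middle bar leaves out the 18 members selected on the p-value, which lowers its share.

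The 18 members selected on the p-value had a median log2 fold change of 0.50, with a median of 0.84 over the 12 higher ones and -0.995 over the 6 lower ones. These values follow from the selection. The order at the edge of that list was looked up by the unadjusted p-values of the edgeR fit, not by those of the study. By these, the members with the highest p-values inside it were grhl1 and pou2f2a (log2 fold changes of -1.77 and 0.33). Those with the lowest outside it were otx2b and foxn1 (2.29 and -0.69). Size and p-value were thus not in the same order. The standard error was 0.313 for grhl1 and 0.470 for otx2b, against 0.0613 for pou2f2a.

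**Figure D5:**
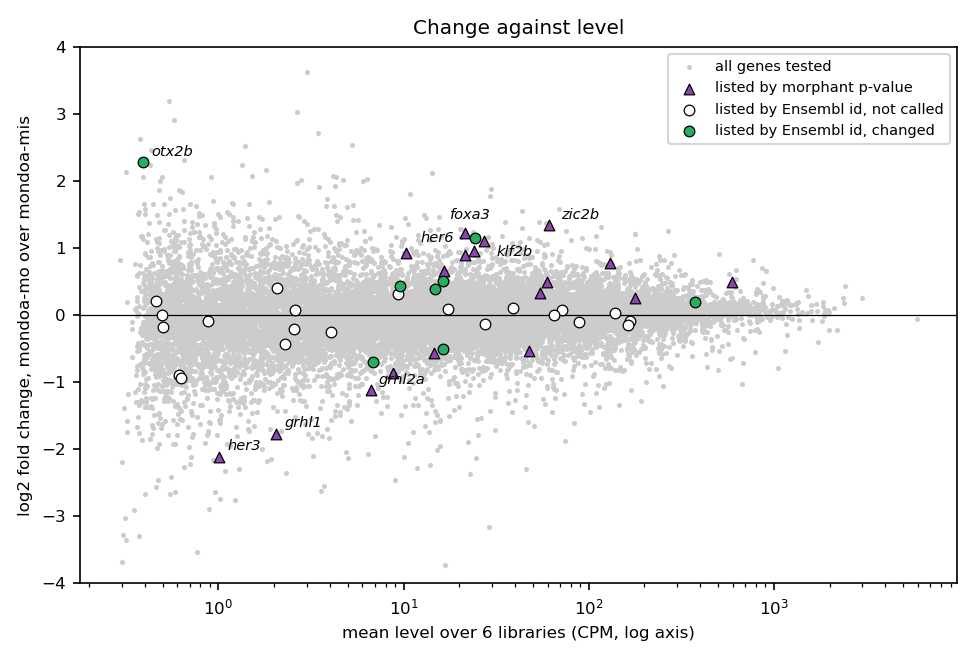
Log2 fold change of mondoa-mo over mondoa-mis against the mean CPM of the 6 libraries (log axis) for all genes tested (grey) and for the members, with triangles for those selected on the p-value and circles for those from the rows in identifier order (filled where called changed). Members with a log2 fold change of at least 1 in either direction are named; open circles spread around 0, most widely at low levels, and otx2b stands at the low end of the level axis.

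The 23 members that were not tested were all from the rows in identifier order. Of these, 11 had at most 3 counts in every library (dlx4a, foxn4, her13, hoxa11b, hoxb10a, hoxb1a, lhx1b, lhx6, nkx1.2la, pou4f1 and sox1b), and a count of 3 corresponds to between 0.0959 and 0.143 CPM in these libraries. The other 12 reached between 4 and 17 counts in at least 1 library, with irx2a highest. No member was at 0 in all 6 libraries. Apart from foxi3b, which was called when every gene with at least 1 count was tested, these genes have no call at this depth.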

How the data were processed

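Per the labels, messenger RNA of morpholino-injected embryos was prepared with the TruSeq mRNA kit and 50 nucleotides were read from each end in 3 lanes. The authors mapped the pairs to GRCz11 with STAR 2.3.8 and, using SAMtools, deposited raw counts of uniquely mapped pairs for each Ensembl 96 gene, with the gene length. Whether strand was used in counting is not given in the sources used here, so overlapping genes on opposite strands are uncertain.

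The counts were tested in R 4.3.3 with edgeR 4.0.16 (filterByExpr, TMM, quasi-likelihood F test, no covariate), with Benjamini-Hochberg adjustment over all 15511 genes tested. The standard error is the log2 fold change divided by the square root of F. Symbols came from 1999, 1999 and 836 rows of the study's lists, and reference symbols for 28986 identifiers served to find other family genes and mlxip. The genes named with values are those called changed, those selected on the p-value, the 5 most abundant uncalled, paralogs and the 4 that are not DNA-binding factors; others have ranges, or were chosen after their values were seen. The members and lists were chosen with earlier results of these data known. Alternatives used DESeq2 1.42.0, voom in limma 3.58.1, 2 other scalings, 2 other filters, a replicate block and leaving out each library. Intervals are at the 95% level. No sequence tables were used here.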

Additional observations from a re-analysis of the deposited data

How the results depend on the processing

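The 8 called members from the rows in identifier order kept their direction in all settings that tested them, and 6 of them stayed called in all of these. The exceptions were her5 and foxp2. The 6 include otx2b, which was tested in 13 of 14 settings and whose call is a description. The 18 members selected on the p-value also kept their direction, but they were chosen on these same libraries, so this follows from the selection. The count of called members in identifier order was 6 to 10 on leaving out 1 library at a time, with 4 to 8 higher and 2 to 4 lower. With scaling to library size alone 5 were lower in place of 2, the additional ones being foxp1a, sp3a and sp3b, and 5 were higher. Over all genes tested the count of calls was 5017, with 3119 to 5832 on leaving out 1 library. It was 3275, 3119 and 3173 without mondoa-mis replicate 1, 2 and 3. For the other genes of the same families, the count of 31 ran from 24 to 32 in the settings that kept all libraries, with 11 to 16 higher and 13 to 19 lower. On leaving out 1 library it ran from 14 to 31, with 5 to 15 higher and 9 to 17 lower. It was 14, 16 and 16 without mondoa-mis replicate 1, 2 and 3. The cause was not tested. Among single members 13 further values passed and 7 no longer passed under some alternative, and 9 genes not called at first were called in at least 1 alternative. Replicate numbers are shared between the groups. In deviations from the group means, correlations of same-numbered libraries were 0.0382, 0.0261 and 0.0473. Those of differently numbered libraries ran from -0.0361 to -0.0023, so each library correlated best with its own number. Whether same-numbered libraries share a clutch or batch was not tested. With a replicate block 5281 genes were called, and 9 members with foxp1a added. Of the members tested at first, the counting filter of at least 10 counts in every library left out otx2b, her3, foxa2, gata2b, sox9a, sp8a and tbx15. Comparisons of promoter letters and of protein identity between paralogs were not run. The floor of 3 counts covers counting error only, and low members such as otx2b rest on few counts.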
